A study of Mus musculus with 16 samples.

Results

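Intermediate filaments were followed in the lung cells of 2 reporter mouse lines through 7 genes of the 49452 genes measured. These were Des (desmin), Vim (vimentin) and Nes (nestin), the filament genes of muscle and other mesenchymal cells, and Krt7, Krt8, Krt18 and Krt19, the keratins of simple, single-layered epithelia. The genes were chosen by name with their measured levels in these mice already known, so that their levels and differences are given as a description. The fit across all genes held them too, but their calls are only counted beside those of all genes, with no p and nothing drawn from them. The genes of linked lists were tested, although these lists too were drawn up with earlier results of these data known. The data are RNA sequencing libraries of sorted tdTomato-positive cells from the left lung lobe of 16 male mice on a C57BL6 background, 4 in each of 4 groups.

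In Acta2-CreERT2; tdTomatoflox mice, here Acta2-tdT, the Acta2 promoter drives a Cre recombinase that works only after tamoxifen and then switches on the red reporter for good. These mice received tamoxifen in food, 400 mg/kg, from 5 days after the agent, so cells that turned the promoter on during injury could be marked. In Pdgfra-CreERT2; tdTomatoflox mice, here Pdgfra-tdT, the Pdgfra promoter drives the same recombinase, and tamoxifen was given as 5 injections of 3 mg at 6 weeks of age, before the agent. Each line received saline or bleomycin, a drug that injures the lung and leads to fibrosis, and all 16 mice were analysed on day 14 at 11 weeks of age. The mice were numbered 1 to 4 with saline and 5 to 8 with bleomycin in each line. Line and tamoxifen schedule cannot be told apart in this design.

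Intermediate filaments are rope-like polymers of the cytoskeleton that carry mechanical load. Desmin is the muscle filament that ties contractile bundles to one another and to the membrane, vimentin is the general filament of mesenchymal, endothelial and blood cells, and nestin co-assembles with either of them in immature or regenerating cells. Keratins polymerise only as pairs of a type II chain (Krt7, Krt8) with a type I chain (Krt18, Krt19), and Krt8 with Krt18 is the basic pair of simple epithelium. In the lung, desmin is known from smooth muscle and from some myofibroblasts, and the simple keratins from the airway and alveolar epithelium and from the mesothelium that covers the organ.

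On the GRCm38 assembly used for the deposited tables, Des lay on chromosome 1 (75360329 to 75368579), Vim on chromosome 2 (13573952 to 13582826), Nes on chromosome 3 (87971093 to 87980451) and Krt19 on chromosome 11 (100140810 to 100146120). The other keratins lay on chromosome 15, Krt7 at 101412402 to 101430313, Krt8 at 101996711 to 102004342 and Krt18 at 102028216 to 102032026. Krt18, a type I gene, thus lay in the type II cluster, 23873 bases from the start of Krt8, which is read from the other strand, while 566397 bases separated Krt7 from Krt8. All 7 are protein-coding. The antisense gene Gm15179 overlaps Des and read 0 to 2.14 FPKM over the 16 mice. Without stranded counting, its reads and those of Des cannot be told apart. The annotated pseudogene Krt8-ps, to which Krt8 reads could be assigned, read at most 0.168 FPKM.

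The 150 bases before the start site are shown for the 2 mesenchymal filaments with the highest values and for the Krt8 and Krt18 pair, to set the promoters of genes that moved together beside each other (RefSeq, GRCm38.p6, 5′ to 3′ on the strand of the gene). They cover chr1:75360142-75360291 on the plus strand for Des, chr2:13574161-13574310 on the plus strand for Vim, chr15:102004343-102004492 on the minus strand for Krt8 and chr15:102028066-102028215 on the plus strand for Krt18. The RefSeq start of Vim lies 359 bases inside the gene as tabulated above, so its window does too, and that of Des lies 37 bases before the gene. Capitals mark the letters of the motifs searched.
Des: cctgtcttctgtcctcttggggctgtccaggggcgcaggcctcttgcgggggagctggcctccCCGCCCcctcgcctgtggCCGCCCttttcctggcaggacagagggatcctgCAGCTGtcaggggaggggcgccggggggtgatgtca
Vim: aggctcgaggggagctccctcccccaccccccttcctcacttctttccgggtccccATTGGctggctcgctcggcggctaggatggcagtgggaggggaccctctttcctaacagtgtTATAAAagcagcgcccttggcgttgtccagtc
Krt8: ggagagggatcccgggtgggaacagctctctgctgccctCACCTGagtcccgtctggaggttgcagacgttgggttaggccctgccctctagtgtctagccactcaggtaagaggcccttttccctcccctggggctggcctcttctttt
Krt18: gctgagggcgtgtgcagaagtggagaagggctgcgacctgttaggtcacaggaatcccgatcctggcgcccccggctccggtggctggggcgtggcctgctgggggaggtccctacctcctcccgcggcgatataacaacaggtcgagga

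The motifs were searched on both strands: the TATA box (TATAAA), the E-box (CANNTG), the GC box (GGGCGG), the CCAAT box (CCAAT), the AP-1 site (TGACTCA or TGAGTCA) and the CArG box of muscle genes. No match overlapped one of another motif in the windows shown. The Des window held an E-box 36 to 31 bases before the start and 2 GC boxes, where 47.66% of 32851 mouse promoter windows of the same length held an E-box and 28.62% a GC box. The Vim window held a TATA box 32 to 27 bases before the start, present in 7.57% of windows, and a CCAAT box on the other strand, present in 24.5%. The Krt8 window held 1 E-box and the Krt18 window none of these letters. A CArG box was found in 0.92% of all windows and an AP-1 site in 2.84%, and neither was found in the 6 windows of these genes in the table. The Krt8 and Krt18 windows, 61.3% and 66.7% G and C, were thus richer in these bases than the median window (54.0%) but shared no match. Krt19 was not among the promoters analysed here.

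Levels are given as FPKM, fragments normalised to transcript length and to the mapped fragments of the library, which the authors computed for each mouse on its own, and which can be compared between genes since they are divided by length. The summed FPKM of the nuclear protein-coding genes was 231058 to 463127 in the Acta2-tdT bleomycin mice and 28512 to 137952 in the other 12. Therefore each level was also scaled so that this sum was the same in every mouse, and both scales are given. Genes at 1 FPKM or more numbered 12618 to 13574 in the Acta2-tdT bleomycin mice and 6997 to 10946 in the rest. As a gauge of low values, the 95th percentile of 1412 olfactory and vomeronasal receptor genes lay at 2.26 to 4.11 FPKM in the other 12 mice and at 0.515 to 2.05 FPKM in the Acta2-tdT bleomycin mice. FPKM give no fragment counts, so that the depth behind each level is unknown.

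The labels were first set against defining markers. Acta2 itself, the smooth muscle actin gene, read 139 to 314 FPKM in Acta2-tdT saline mice, 1229 to 3211 FPKM in Acta2-tdT bleomycin mice and 0.83 to 19.4 FPKM in the 8 Pdgfra-tdT mice. Pdgfra, the receptor gene of the other line, read 0.98 to 3.82 FPKM in the Pdgfra-tdT mice, below the receptor percentile in 7 of the 8, 0.273 to 0.562 FPKM in the Acta2-tdT saline mice and 2.49 to 11.9 FPKM in the Acta2-tdT bleomycin mice. With saline it was thus lower in every Acta2-tdT than in every Pdgfra-tdT mouse, by a log2 difference of -1.43 (SE 0.16), or -1.67 (SE 0.17) scaled. With bleomycin the difference between the lines was 1.598 (SE 0.45) as deposited and -0.33 (SE 0.22) scaled, where the groups overlapped. Pdgfra-tdT saline mouse 3 and Pdgfra-tdT bleomycin mouse 5 stood apart from the rest of their line in endothelial genes, with Pecam1, an endothelial adhesion molecule, at 39.1 and 65.9 FPKM against 0.25 to 5.78 FPKM in the other 6, and values without them are given beside the results that moved most with them.

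Desmin separated the lines already with saline. Des read 7.75, 8.23, 10.9 and 16.2 FPKM in Acta2-tdT saline mice 1 to 4 and 0.274, 0.818, 1.36 and 1.68 FPKM in Pdgfra-tdT saline mice 1 to 4. The groups did not overlap, and the mean in the Acta2-tdT saline mice was 10.4 times that in the Pdgfra-tdT saline mice, an uncertain ratio since all 4 Pdgfra-tdT values were below the receptor percentile. On the log2(FPKM + 1) scale, used for all differences here, the difference was 2.54 (SE 0.32) and on scaled values 2.51 (SE 0.26).

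No other member separated the lines with saline on the deposited scale. Vim read 9.71, 9.82, 17.8 and 20.6 FPKM in the Acta2-tdT mice and 2.27, 2.59, 53.9 and 4.86 FPKM in the Pdgfra-tdT mice. All the Acta2-tdT values lay above those of 3 Pdgfra-tdT mice and below that of Pdgfra-tdT mouse 3, so that the log2 difference was 0.91 (SE 0.99), and 1.84 without that mouse. Nes, the gene of the co-assembling nestin chain, read 0.693 to 1.05 FPKM against 0.188 to 3.08 FPKM, again with Pdgfra-tdT mouse 3 at the top, and the log2 difference was 0.22 (SE 0.44), and 0.66 without that mouse. The 4 keratins summed to 0.811 to 1.59 FPKM in the Acta2-tdT and 1.42 to 4.24 FPKM in the Pdgfra-tdT saline mice. Only Krt8 gave non-overlapping groups, and only after scaling, at 0.389 to 0.787 scaled FPKM in Acta2-tdT against 1.03 to 2.81 scaled FPKM in Pdgfra-tdT. Krt8 was above the receptor percentile in only 1 of these 8 mice, Pdgfra-tdT mouse 3, and its deposited log2 difference of -0.55 (SE 0.33) was -0.23 without that mouse.

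With saline, 2 of the 7 members, Des and Vim, passed the filter of at least 1 FPKM in at least 4 of 8 mice, and Des was called higher by limma (adjusted p under 0.05) while 2.72% of 8153 tested genes were. Since Des was selected on these levels, nothing follows from that count.

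With bleomycin the desmin level of Acta2-tdT cells was higher, also relative to their Acta2. Des read 231, 199, 391 and 583 FPKM in Acta2-tdT bleomycin mice 5 to 8, and the lowest of these was above the highest saline value of 16.2 FPKM. The group mean was 32.6 times that with saline, and the log2 difference was 4.82 (SE 0.42). After scaling, Des read 10.3 to 13.8 with saline and 35.6 to 61.9 with bleomycin, again without overlap, a ratio of means of 3.96 and a log2 difference of 1.88 (SE 0.18). Acta2 differed by 3.13 (SE 0.39) on the deposited scale and by 0.14 (SE 0.18) after scaling, where its groups overlapped.

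Ratios of genes within a mouse do not depend on the scaling. In Acta2-tdT cells with saline, Des per Acta2 was 0.0488 ± 0.0059 (SD, n = 4), against 0.173 ± 0.021 (SD, n = 4) with bleomycin, and the ranges, 0.0426 to 0.0556 and 0.150 to 0.198, were apart. Against Myh11, the myosin heavy chain of differentiated smooth muscle, the shift was larger. The mean of Des per Myh11 was 1.07 ± 0.12 (SD, n = 4) in the saline mice and 20.9 ± 7.6 (SD, n = 4) in the bleomycin mice, with ranges of 0.939 to 1.23 and 12.8 to 28.1. Myh11 itself read 7.31 to 13.2 FPKM with saline and 14.4 to 20.7 FPKM with bleomycin, and its scaled log2 difference was -1.84 (SE 0.15), opposite in sign to the 0.69 (SE 0.22) on the deposited scale. Desmin was thus high against the smooth muscle myosin in the same mice, whichever scale is used. The 8 smooth muscle markers, Myh11 among them and Acta2 the largest part, summed to 174 to 406 FPKM with saline and 1621 to 4194 FPKM with bleomycin. Scaled, these sums overlapped at 232 to 345 and 289 to 445, so the lower scaled Myh11 was not shared by the sum. Since cells were pooled, fewer cells of a type and less RNA per cell cannot be told apart.

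**Figure D1:**
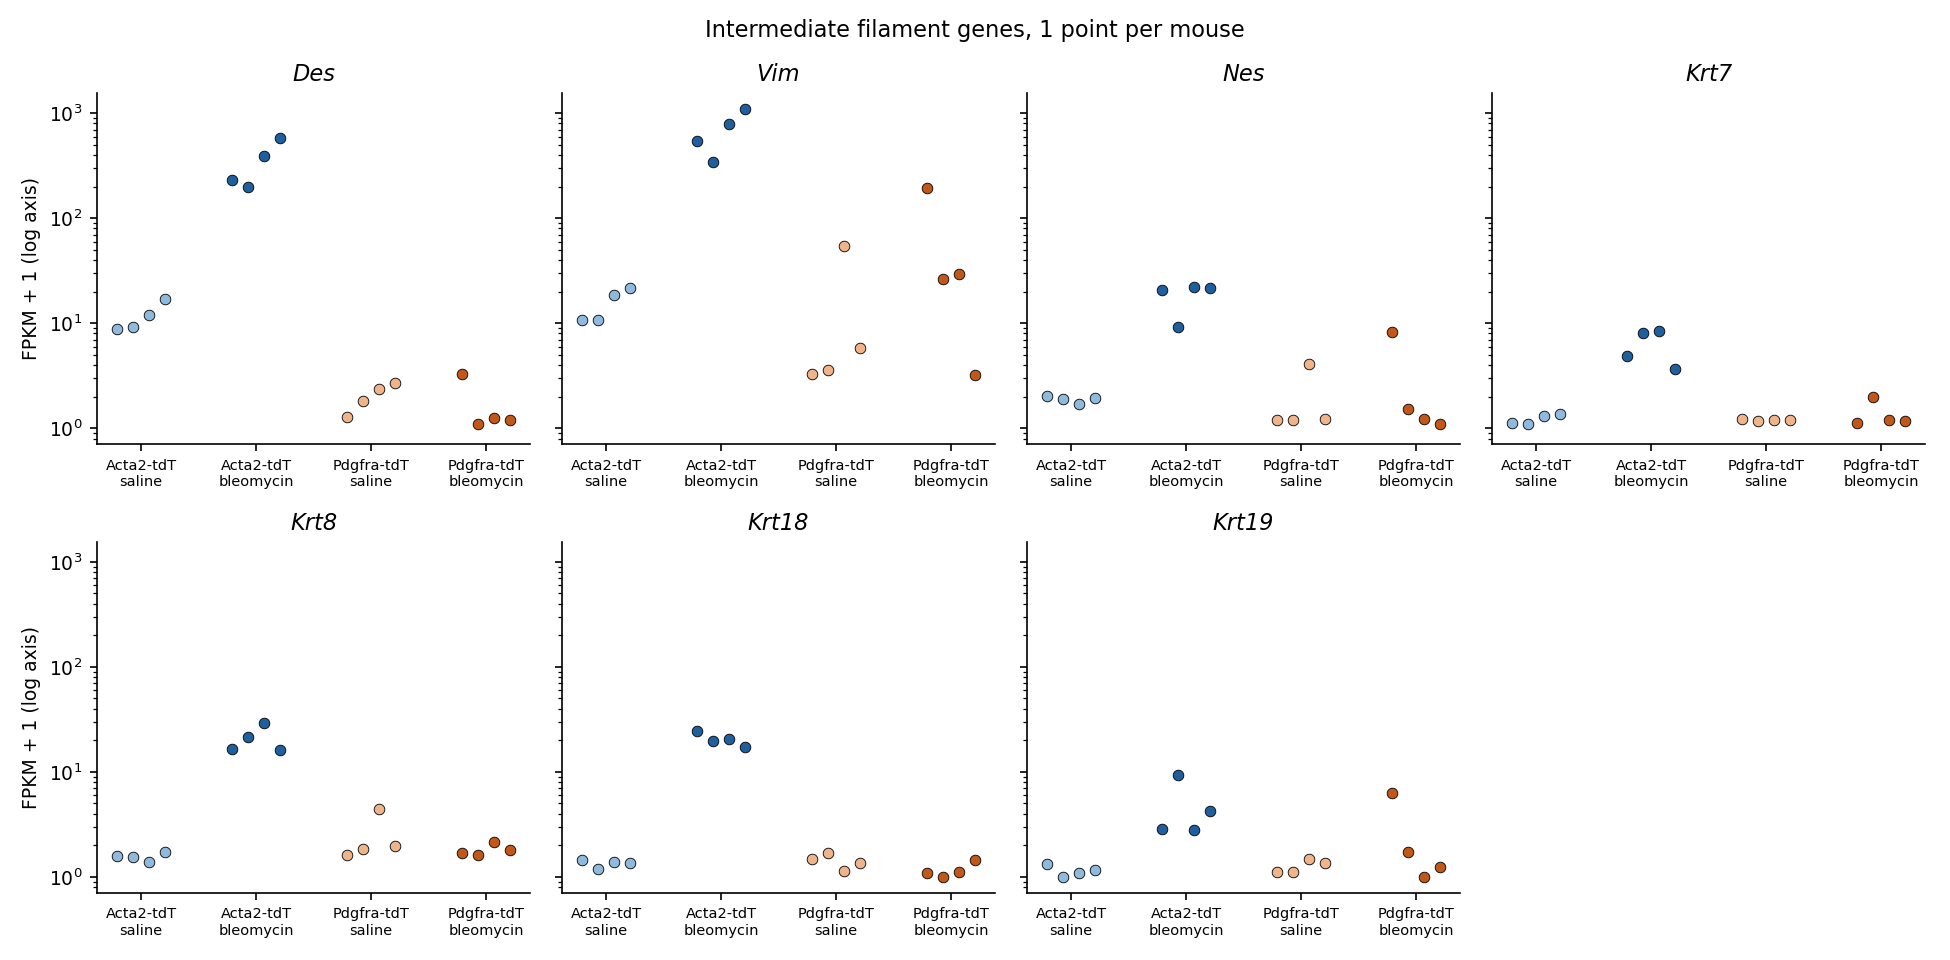
FPKM plus 1 on a log axis of each of the 7 genes in the 16 mice, 1 point per mouse, with the mice of each group from left to right in the order of their numbers. Every gene sat higher in the Acta2-tdT bleomycin mice than in the Acta2-tdT saline mice, and Des read 199 to 583 FPKM there against 7.75 to 16.2 FPKM with saline.

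Vimentin had the highest level of the 7 in these groups and, on the log2(FPKM + 1) scale, the largest difference. Vim read 541, 346, 796 and 1086 FPKM in Acta2-tdT bleomycin mice 5 to 8, against 9.71 to 20.6 FPKM with saline. The mean was 47.8 times that with saline (5.84 times scaled), and the log2 difference was 5.43 (SE 0.44). For Krt18 the ratio was 56.1 (7.35 scaled), an uncertain one since its saline values were all below the receptor percentile. Scaled, Vim read 12.9 to 17.97 with saline and 73.5 to 115 with bleomycin, without overlap, and the log2 difference was 2.47 (SE 0.18). Des per Vim averaged 0.759 ± 0.099 (SD, n = 4) in saline mice, against 0.508 ± 0.064 (SD, n = 4) in bleomycin mice, with ranges of 0.615 to 0.838 and 0.426 to 0.576. Vim per Lmna, the gene of the A-type lamins of the nucleus, was 0.907 ± 0.213 (SD, n = 4) and 0.925 ± 0.123 (SD, n = 4), and these ranges overlapped.

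Markers of other vimentin-rich cells were also higher with bleomycin on the deposited scale. After scaling, the pericyte and endothelial sums were lower and the leukocyte markers were mixed. The summed level of 8 leukocyte markers was 501 to 1015 FPKM in Acta2-tdT saline and 3593 to 5191 FPKM in Acta2-tdT bleomycin mice, with 4 to 6 and 6 to 7 of them at 1 FPKM or more, and 691 to 1027 and 391 to 764 scaled. Ptprc, which encodes the pan-leukocyte antigen, read 1.35 to 2.99 FPKM and 12.3 to 26.3 FPKM, with overlap after scaling at 1.86 to 3.51 and 1.503 to 3.07. The macrophage genes Lyz2, for lysozyme, and Cd68 were higher also when scaled, Lyz2 without overlap at 49.6 to 148 and 151 to 448 and Cd68 with overlap at 1.65 to 9.43 and 7.37 to 42.01. The summed level of 7 fibroblast markers was 17.3 to 39.6 FPKM with saline and 931 to 2662 FPKM with bleomycin, with 4 to 5 and 6 of them at 1 FPKM or more, and 23.1 to 33.6 and 198 to 282 scaled. Col1a1, the collagen I gene, had a scaled log2 difference of 4.70 (SE 0.22). The 6 pericyte markers summed to 7.08 to 17.2 FPKM with saline and 33.2 to 79.3 FPKM with bleomycin, and to 9.76 to 14.7 and 7.05 to 8.69 scaled. For 6 endothelial markers the sums were 5.83 to 12.3 FPKM and 18.9 to 26.2 FPKM, and 5.90 to 10.4 and 2.66 to 4.04 scaled. The part of these cells in the vimentin and desmin levels was not tested.

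Nestin differed less. Nes read 1.05, 0.918, 0.693 and 0.961 FPKM in Acta2-tdT saline and 19.7, 8.30, 21.1 and 20.8 FPKM in Acta2-tdT bleomycin mice. The groups were apart, also after scaling, at 0.701 to 1.40 against 1.76 to 3.04. The log2 difference was 3.20 (SE 0.31) and 0.71 (SE 0.17) scaled. Relative to its polymerisation partner it was lower, since Nes per Vim averaged 0.0718 ± 0.0341 (SD, n = 4) in saline mice, against 0.0265 ± 0.0072 (SD, n = 4) in bleomycin mice, with every bleomycin mouse below every saline mouse.

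**Figure D2:**
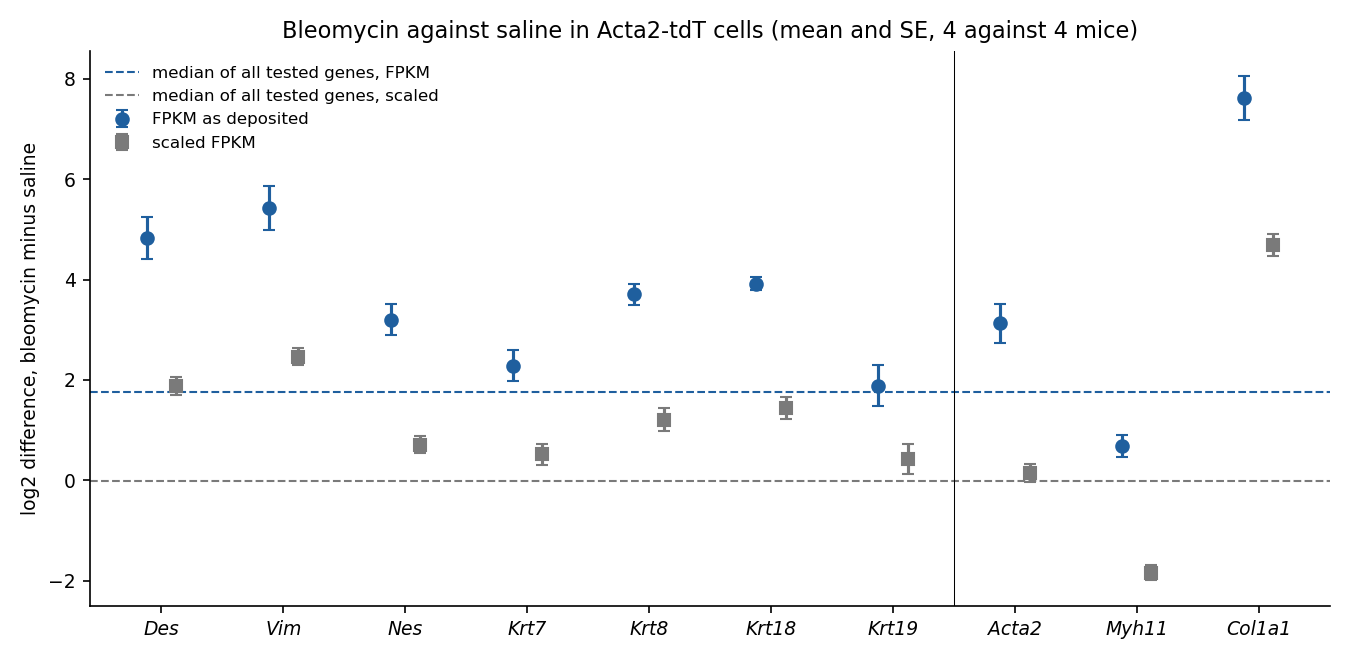
Log2 difference between Acta2-tdT bleomycin and saline mice for the 7 genes and, right of the line, Acta2, Myh11 and Col1a1, on FPKM as deposited (circles) and scaled (squares), with SE bars from 4 against 4 mice and dashed lines at the medians of all 12523 tested genes, 1.76 and -0.02. Vim and Des lay farthest above the scaled median among the 7 on this log2 scale, at 2.47 and 1.88, and Myh11 lay below it at -1.84.

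The simple keratins read above 10 FPKM only in the Acta2-tdT bleomycin mice, and there only Krt8 and Krt18 did. Krt8, the type II chain, read 0.591, 0.535, 0.384 and 0.706 FPKM with saline and 15.6, 20.6, 27.9 and 15.1 FPKM with bleomycin. Krt18, its type I partner, read 0.461, 0.188, 0.388 and 0.353 FPKM with saline and 23.7, 18.5, 19.4 and 16.3 FPKM with bleomycin. All 4 bleomycin mice were above all 4 saline mice in both genes, on either scale. The log2 differences were 3.70 (SE 0.21) for Krt8 and 3.92 (SE 0.12) for Krt18, and 1.21 (SE 0.24) and 1.44 (SE 0.22) after scaling.

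Both chains of the pair reached about the same level, as Krt8 per Krt18 was 1.03 ± 0.33 (SD, n = 4) in the Acta2-tdT bleomycin mice. The order of the mice differed, since Krt8 was highest in mouse 7 and Krt18 in mouse 5. Krt8 and Krt18 made up 71.8% to 87.2% of the summed FPKM of the 4 keratins in these mice. The keratins as a share of all 7 genes were 5.25% ± 2.83 (SD, n = 4) with bleomycin and 4.87% ± 1.74 (SD, n = 4) with saline, so the keratins kept a small share while their level changed.

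Krt7 and Krt19, the further type II and type I chains, were lower. Krt7 read 0.0885 to 0.370 FPKM with saline and 3.93, 7.08, 7.48 and 2.66 FPKM in Acta2-tdT bleomycin mice 5 to 8. Krt19 read 0.326, 0.0888 and 0.156 FPKM in saline mice 1, 3 and 4 and was listed at 0 in saline mouse 2, and read 1.84, 8.30, 1.80 and 3.22 FPKM with bleomycin. On the deposited scale the groups were apart in both genes, with log2 differences of 2.28 (SE 0.30) and 1.89 (SE 0.41). Scaled, the groups overlapped in both, and the differences were 0.52 (SE 0.21) and 0.42 (SE 0.30). The 4 keratins were all above the 95th percentile of the receptor genes in each Acta2-tdT bleomycin mouse, and none was in any Acta2-tdT saline mouse.

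Epithelial and mesothelial markers were read in the same libraries. The 15 epithelial markers summed to 46.7 to 789 FPKM in Acta2-tdT saline and 319 to 1555 FPKM in Acta2-tdT bleomycin mice, with 1 to 5 and 8 to 10 of them at 1 FPKM or more, and to 64.5 to 799 and 36.01 to 240.1 scaled. Most of this was Scgb1a1, the secretoglobin of airway club cells, at 42.8 to 767 FPKM and 266 to 1516 FPKM, and saline mouse 3 had 767 FPKM of it with a Krt8 level of 0.384 FPKM. Sftpc, the surfactant protein gene of type II alveolar cells, read 0.62 to 15.5 FPKM and 12.2 to 221 FPKM. The surface gene Epcam read 0.05 to 0.28 FPKM with saline and 1.18 to 1.40 FPKM with bleomycin, without overlap, and overlapped after scaling at 0.063 to 0.303 and 0.133 to 0.276. The junction gene Cdh1 read 0.10 to 0.23 and 0.11 to 1.28 FPKM, and 0.137 to 0.235 and 0.018 to 0.145 scaled, with overlap on both scales. Krt8 per Epcam was 10.8 to 23.6 in the bleomycin mice and, with overlap, 1.35 to 12.6 in the saline mice, where both genes were under 1 FPKM.

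The 8 mesothelial markers summed to 1.62 to 2.27 FPKM in Acta2-tdT saline mice, with none at 1 FPKM. In Acta2-tdT bleomycin mice 5 to 8 they summed to 3.40, 31.8, 31.0 and 35.0 FPKM, with 1 to 5 of them at 1 FPKM or more. Scaled, these sums were 1.93 to 2.41 with saline and 0.524 to 6.76 with bleomycin. Msln, which encodes mesothelin, read 0.12, 14.0, 18.1 and 18.7 FPKM in these mice, and Upk3b, a uroplakin gene of mesothelium, read 0.04 to 0.29 FPKM. Upk1b, a further uroplakin gene of the list, read 0.104 to 0.440 FPKM with saline and 2.51, 6.31, 10.5 and 13.2 FPKM in bleomycin mice 5 to 8. Scaled, Upk1b read 0.144 to 0.374 with saline and 0.388 to 1.40 with bleomycin. In mouse 5, with the lowest Msln and Upk1b of its group, Krt8 read 15.6 FPKM and Krt18 read 23.7 FPKM. The part of epithelial or mesothelial cells in the keratin levels was not tested.

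**Figure D3:**
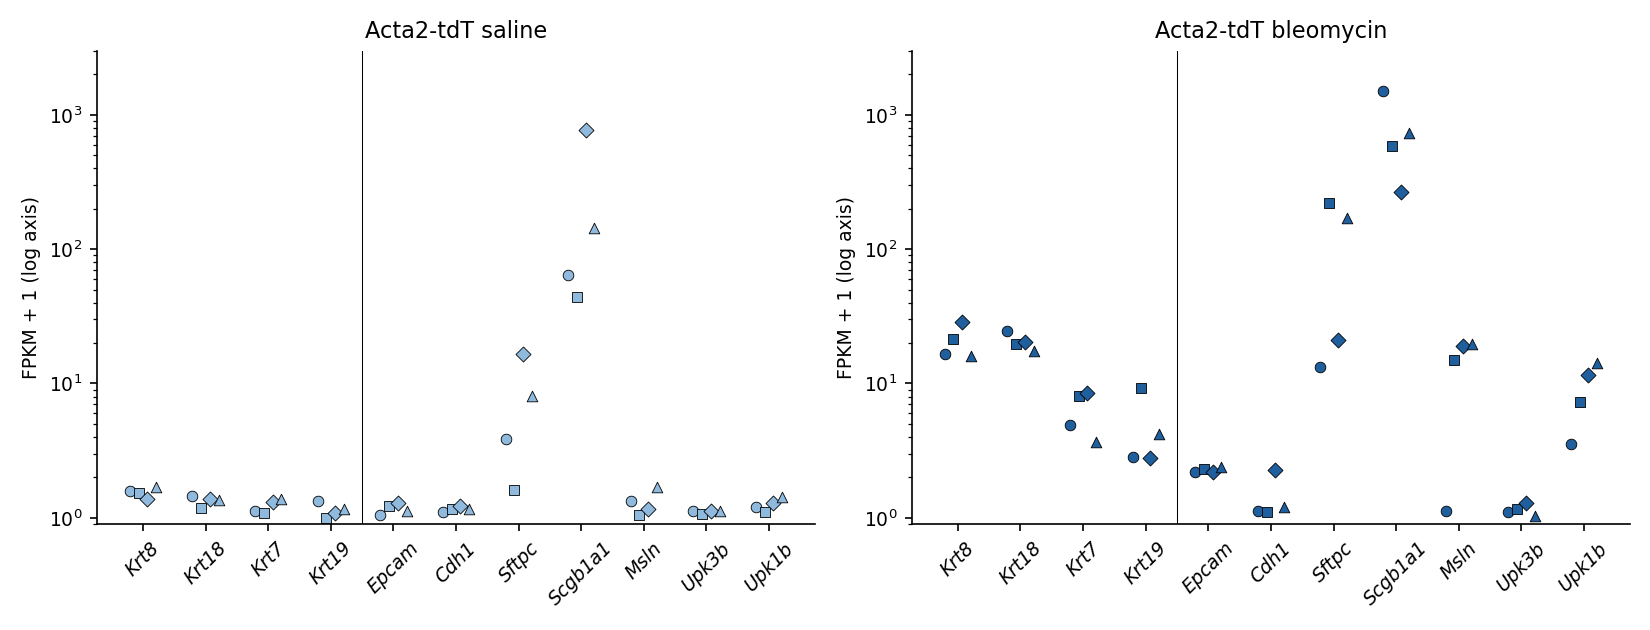
FPKM plus 1 on a log axis of the 4 keratins and, right of the line, of epithelial (Epcam, Cdh1, Sftpc, Scgb1a1) and mesothelial (Msln, Upk3b, Upk1b) markers in Acta2-tdT saline and bleomycin mice, where the circle, square, diamond and triangle stand for mice 1 to 4 (left) and 5 to 8 (right). With bleomycin Krt8 and Krt18 read 15.1 to 27.9 FPKM while Epcam read 1.18 to 1.40 FPKM, Sftpc 12.2 to 221 FPKM and Scgb1a1 266 to 1516 FPKM, and Msln was at 0.12 FPKM in mouse 5 and at 14.0 to 18.7 FPKM in mice 6 to 8.

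All 7 members passed the filter between Acta2-tdT bleomycin and saline mice, all but Des and Vim through the bleomycin mice, and all 7 were called higher, where 70.4% of 12523 tested genes were called higher. After scaling, 6 of 7 were called higher (not Krt19), where 23.9% of the genes were higher and 32.6% lower. The members were selected on this contrast, and nothing is read from these counts.

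Bleomycin did not separate the groups of Pdgfra-tdT mice in any of the 7 genes. Des read 2.32, 0.0926, 0.244 and 0.209 FPKM in Pdgfra-tdT bleomycin mice 5 to 8, against 0.274 to 1.68 FPKM with saline. The bleomycin values lay below all saline values in 3 mice and above them in mouse 5. The log2 difference was -0.36 (SE 0.44), and -0.73 without mouse 5. After scaling, it was -0.69 (SE 0.29), also with overlap.

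Vim varied more between mice of a Pdgfra-tdT group than between the groups. It read 194, 25.6, 28.6 and 2.24 FPKM with bleomycin and 2.27, 2.59, 53.9 and 4.86 FPKM with saline. The log2 difference was 1.76 (SE 1.54), ran from 0.80 to 2.77 as 1 mouse at a time was left out and was 1.74 without saline mouse 3 and bleomycin mouse 5 together. Nes read 7.31, 0.513, 0.226 and 0.108 FPKM with bleomycin and 0.188, 0.196, 3.08 and 0.221 FPKM with saline. Its log2 difference of 0.32 (SE 0.81) was 0.76 without saline mouse 3 and -0.36 without bleomycin mouse 5.

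The mice with the most Vim and Nes were those with the most endothelial RNA. The 6 endothelial markers summed to 327 FPKM in Pdgfra-tdT saline mouse 3 and 897 FPKM in bleomycin mouse 5, where all 6 were at 1 FPKM or more, to 3.68 to 9.59 FPKM in saline mice 1, 2 and 4 and to 91.5, 27.5 and 3.78 FPKM in bleomycin mice 6 to 8. The summed level of 8 leukocyte markers separated the treatments in this line on both scales. It was 2983, 1577, 1101 and 351 FPKM in bleomycin mice 5 to 8 against 38.7 to 100 FPKM with saline. Scaled, it was 604 to 1559 against 31.8 to 164. Most of the sum was Lyz2, at 342 to 2861 FPKM against 24.3 to 69.5 FPKM. Cd68 was also apart on both scales, at 4.33 to 39.0 FPKM against 0.536 to 2.07 FPKM. Ptprc overlapped on both, at 0.837 to 2.545 FPKM against 0.357 to 0.993 FPKM. Bleomycin mouse 8 had 3.78 FPKM of endothelial markers, Ptprc within the saline range (0.837 FPKM) and Vim at 2.24 FPKM. The lowest Vim of a saline mouse was 2.27 FPKM. The part of these cells in the Vim and Nes levels was not tested.

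**Figure D4:**
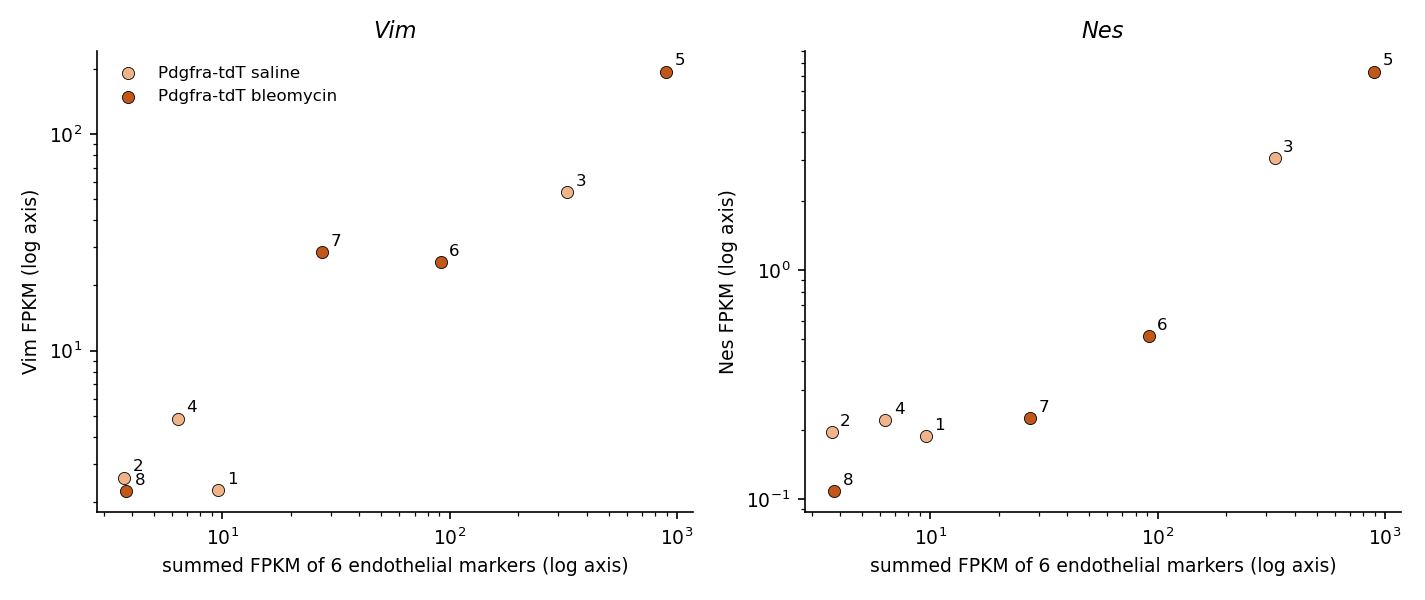
Vim and Nes FPKM against the summed FPKM of 6 endothelial markers in the 8 Pdgfra-tdT mice, on log axes, with 1 point per mouse labelled by its number. Saline mouse 3 and bleomycin mouse 5, at 327 and 897 FPKM of endothelial markers, had the highest Vim (53.9 and 194 FPKM) and Nes (3.08 and 7.31 FPKM).

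The keratins stayed low in Pdgfra-tdT mice of either treatment. They summed to 1.42 to 4.24 FPKM with saline and 1.48 to 6.13 FPKM with bleomycin, and made up 24.1% ± 12.9 (SD, n = 4) and 13.8% ± 17.1 (SD, n = 4) of the 7 genes. Krt8 read 0.625 to 3.42 FPKM and 0.627 to 1.16 FPKM, with saline mouse 3 highest. Krt18 read 0.141 to 0.669 FPKM with saline and 0.0879, 0.123 and 0.456 FPKM with bleomycin, and was listed at 0 in bleomycin mouse 6. Krt19 reached 5.23 FPKM in bleomycin mouse 5 and at most 0.718 FPKM in the other 7 mice. The receptor percentile was passed by a keratin in 2 of the 8 mice, Krt8 in saline mouse 3 and Krt19 in bleomycin mouse 5. Only Vim passed the filter in this comparison and it was not called, where 0.124% of 7275 tested genes were called in either direction, and nothing is read from this count.

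With bleomycin the lines lay far apart in desmin. The mean of Des in Acta2-tdT bleomycin mice was 489 times that in Pdgfra-tdT bleomycin mice (118 times scaled), and 1930 times (188 times scaled) without Pdgfra-tdT mouse 5. All 4 Pdgfra-tdT values were below the receptor percentile, so the size of this ratio is uncertain. The log2 difference was 7.71 (SE 0.52), or 5.08 (SE 0.23) scaled. Every Acta2-tdT bleomycin mouse exceeded every Pdgfra-tdT bleomycin mouse on both scales. Vim gave 4.58 (SE 1.26) and, scaled, 1.94 (SE 0.83). Its groups were apart, with 346 FPKM as the lowest Acta2-tdT and 194 FPKM as the highest Pdgfra-tdT value.

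Krt18 gave 4.14 (SE 0.16) and 1.64 (SE 0.28) and Krt8 3.48 (SE 0.22) and 1.04 (SE 0.31), without overlap on either scale. Nes and Krt7 were apart on the deposited scale, at 3.10 (SE 0.75) and 2.15 (SE 0.35), and overlapped after scaling, at 0.97 (SE 0.39) and 0.38 (SE 0.28). Krt19 overlapped on both, at 1.14 (SE 0.72) and -0.06 (SE 0.42). All 7 passed the filter here, and 6 were called higher, where 71.0% of 11995 tested genes were. Scaled, 3 were called higher (Des, Krt8 and Krt18), where 15.8% of genes were higher and 17.6% lower. All but Vim passed the filter through the Acta2-tdT bleomycin mice, the members were selected on these levels, and nothing is read from the counts. Without Pdgfra-tdT bleomycin mouse 5, the deposited log2 differences were 8.09 for Des, 5.54 for Vim, 3.78 for Nes, 3.45 for Krt8 and 1.71 for Krt19. These values share the Acta2-tdT bleomycin mice with the comparison of treatments above.

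The effect of bleomycin was then set side by side in the lines. Des differed by 4.82 in Acta2-tdT and -0.36 in Pdgfra-tdT cells, Krt18 by 3.92 and -0.27, and Krt8 by 3.70 and -0.33. After scaling these were 1.88 and -0.69 for Des, 1.44 and -0.38 for Krt18 and 1.21 and -0.49 for Krt8. Vim differed upward in the mean of either line, by 5.43 and 1.76, and by 2.47 and 1.29 scaled, although its Pdgfra-tdT groups overlapped. The difference of the effects (Acta2-tdT minus Pdgfra-tdT) was 5.18 for Des, 3.67 for Vim, 2.88 for Nes, 2.13 for Krt7, 4.03 for Krt8, 4.19 for Krt18 and 1.28 for Krt19. Scaled, it was 2.56, 1.18, 0.70, 0.43, 1.70, 1.83 and 0.11 in the same order. Without Pdgfra-tdT saline mouse 3 and bleomycin mouse 5 it was 5.46 for Des, 3.70 for Vim and 3.12 for Nes on the deposited scale. In the fit over all 16 mice 5 of 7 members were called higher (not Vim or Krt19), where 36.6% of 16605 tested genes were, and scaled 3 were (Des, Krt8 and Krt18), where 1.33% were. Here too the members were selected on the levels compared, and nothing is read from the counts.

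The order of the genes differed between the groups. In Acta2-tdT saline mice Vim (14.5 ± 5.6 FPKM, SD, n = 4) and Des (10.8 ± 3.9 FPKM, SD, n = 4) came first, overlapping each other, and the remaining 5 were near or under 1 FPKM. In Acta2-tdT bleomycin mice Vim (692 ± 321 FPKM, SD, n = 4) and Des (351 ± 176 FPKM, SD, n = 4) overlapped as groups, although Vim was the higher in each mouse. Krt8 (19.8 ± 5.9 FPKM, SD, n = 4), Krt18 (19.5 ± 3.1 FPKM, SD, n = 4) and Nes (17.5 ± 6.1 FPKM, SD, n = 4) followed with overlapping ranges. Krt7 (5.29 ± 2.37 FPKM, SD, n = 4) and Krt19 (1.80 to 8.30 FPKM) came last and overlapped. In the Pdgfra-tdT mice Vim was the highest of the 7 in every mouse, at 47.8% to 86.1% of their sum with saline and 53.2% to 93.6% with bleomycin.

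**Figure D5:**
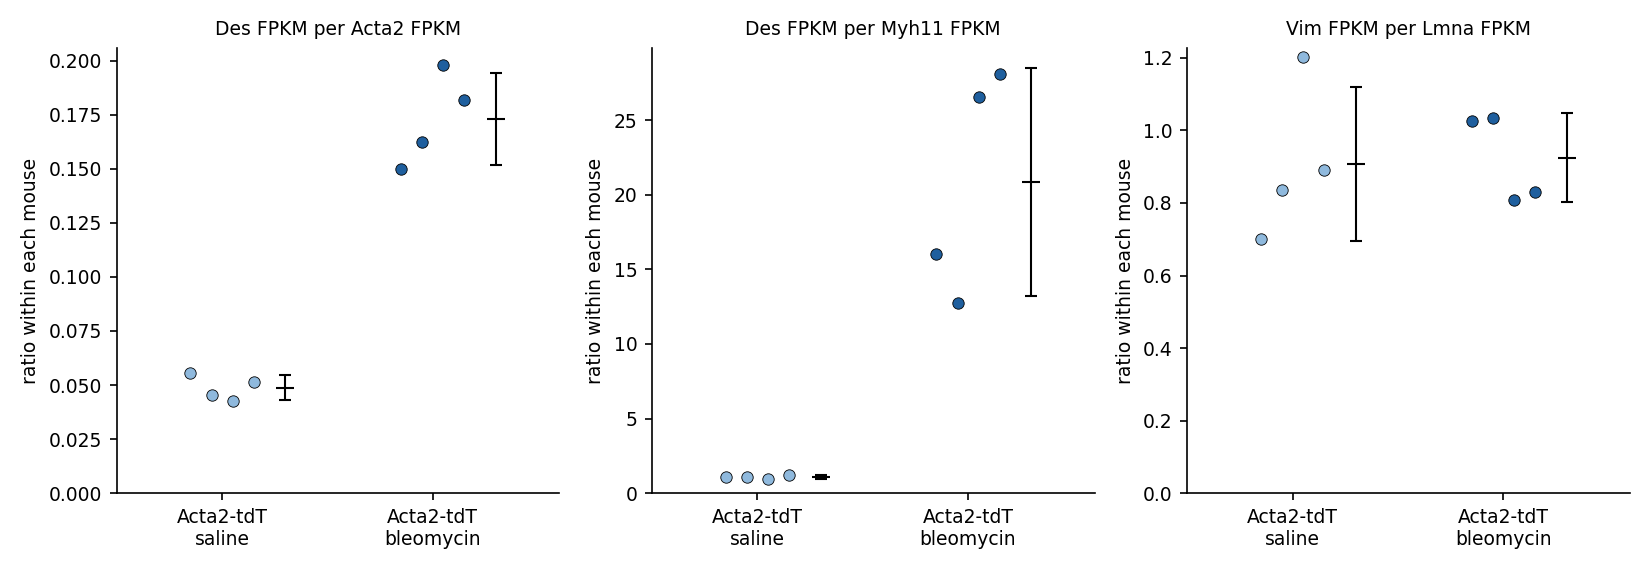
Ratios of FPKM within each Acta2-tdT mouse, 1 point per mouse with the mean and SD of 4 mice beside them. Des per Acta2 went from 0.0426 to 0.0556 with saline to 0.150 to 0.198 with bleomycin, Des per Myh11 from 0.939 to 1.23 to 12.8 to 28.1, and Vim per Lmna overlapped.

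Genes that work with intermediate filaments were then tested, 51 in 3 lists that hold none of the 7, of which 50 were measured. The choice of these lists was made with earlier results of these data known, which limits what each p below can say. The lists are 22 other filament genes (further keratins, neurofilaments, lamins and the muscle chains synemin and syncoilin), 22 linkers that anchor filaments to junctions, actin or the nucleus, and 7 small heat shock proteins and co-chaperones that keep filaments from aggregating. With saline, 12 passed the filter and 4 were higher in Acta2-tdT than in Pdgfra-tdT cells, none lower, where 2.72% of all tested genes were higher, with a median log2 difference of 1.06 over the 12 and 0.17 over all tested genes. Hspb2, Hspb6 and Krt10, 3 of the 4, were under 1 FPKM in each Pdgfra-tdT saline mouse and passed the filter through the Acta2-tdT mice, so nothing is read from this count. Of the 4, 3 were chaperones, as were 7 of the 12 tested. Hspb2 differed by 2.78 (SE 0.30, limma adjusted p = 0.00347), Hspb1 by 2.66 (SE 0.56, limma adjusted p = 0.0496) and Hspb6 by 2.18 (SE 0.38, limma adjusted p = 0.0229). Without the filter Hspb2 was still called (limma adjusted p = 0.0278), while Hspb1 and Hspb6 were not (limma adjusted p = 0.232 and 0.119). All 3 encode small heat shock proteins abundant in muscle. Hspb2 read 8.11, 5.09, 6.36 and 12.99 FPKM in the Acta2-tdT and 0.14 to 0.56 FPKM in the Pdgfra-tdT saline mice, without overlap. The count was not stable, since 0 of 5 to 8 tested genes were called when any single Acta2-tdT saline mouse was left out (3 at an unadjusted p under 0.05 in each case) and 1 when Pdgfra-tdT mouse 1, 2 or 4 was.

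With bleomycin, 22 were tested and 19 were higher in Acta2-tdT cells, none lower, where 71.0% of all tested genes were higher, with a median of 2.04 where that of all tested genes was 1.81. Sync, Dmd and Hspb2, among others, were under 1 FPKM in each Pdgfra-tdT bleomycin mouse and passed the filter through the Acta2-tdT mice, so nothing is read from these counts. Scaled, 8 were higher and 1 lower, where 15.8% of all tested genes were higher and 17.6% lower, with a median of 0.37 against 0.14. Cryab, the gene of αB-crystallin, which binds desmin, had the largest difference at 6.43 (SE 0.67, limma adjusted p = 4.99e-05), and 3.77 (SE 0.40, limma adjusted p = 0.000524) after scaling, and without the filter it was still called (limma adjusted p = 0.000631). It read 126, 98.8, 183 and 254 FPKM in Acta2-tdT bleomycin mice and 2.84, 0.62 and 0.74 FPKM in Pdgfra-tdT bleomycin mice 5, 7 and 8, and was listed at 0 in mouse 6. The groups were far apart. Hspb1 differed by 5.85 (SE 0.94, limma adjusted p = 0.00034) and Lmna by 5.09 (SE 1.07, limma adjusted p = 0.00139), and without Pdgfra-tdT bleomycin mouse 5 by 6.501 and 5.67.

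Within Acta2-tdT cells, 19 of 22 tested partner genes rose with bleomycin and none fell, where 70.4% of all tested genes rose, with a median of 1.996 where that of all tested genes was 1.76. Sync, Lmnb2 and Plec, among others, were under 1 FPKM in each saline mouse and passed the filter through the bleomycin mice, so nothing is read from this count. Scaled to the same sum, 6 were higher and 7 lower, where 23.9% and 32.6% of all tested genes were, with a median of -0.06 against -0.02. Of the 7 lower ones 6 were linkers, as were 10 of the 22 tested, and nothing is read from this. Lmna rose by 5.40 (SE 0.50, limma adjusted p = 1.48e-05) and by 2.43 (SE 0.30) scaled. It read 11.8 to 23.1 FPKM with saline and 334 to 1310 FPKM with bleomycin. Plec, the gene of plectin, which crosslinks filaments to actin and to adhesions, rose by 4.35 (SE 0.36, limma adjusted p = 1.22e-05, and 0.000138 without the filter) and by 1.73 (SE 0.19) scaled. Plec read 0.64, 0.40, 0.34 and 0.63 FPKM with saline and 35.9, 13.9, 38.5 and 39.2 FPKM with bleomycin. Cryab rose by 3.93 (SE 0.50, limma adjusted p = 4.47e-05) and by 1.02 (SE 0.31) scaled.

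In Pdgfra-tdT cells 5 partner genes were tested and 0 were called with bleomycin by limma, with 0 at an unadjusted p under 0.05, where 0.124% of all tested genes were called. Their median log2 difference was 0.74, and 0.27 scaled, where those of all tested genes were 0.02 and -0.25. The effect of bleomycin was larger in Acta2-tdT than in Pdgfra-tdT cells for 13 of 25 tested partner genes and smaller for 0, by the interaction of line and treatment, where it was larger for 36.6% of all tested genes. Sync, Lmnb2, Plec, Dmd and Hspb2, among others, entered the test mainly through Acta2-tdT mice, so nothing is read from this count. Plec read 13.9 to 39.2 FPKM in Acta2-tdT bleomycin mice, with a median of 0.51 FPKM in Acta2-tdT saline mice. Its medians in Pdgfra-tdT saline and bleomycin mice were 0.22 and 0.90 FPKM. Cryab gave a difference of 4.25 (SE 0.75, limma adjusted p = 0.000757), Plec 3.73 (SE 0.81, limma adjusted p = 0.00286) and Lmna 3.37 (SE 1.17, limma adjusted p = 0.0327). The call of Lmna was lost without any one of Acta2-tdT saline mice 1, 2 and 3, Acta2-tdT bleomycin mice 7 and 8 and Pdgfra-tdT saline mice 3 and 4, and without Pdgfra-tdT saline mouse 3 its difference was 3.03. It was also lost without the filter (limma adjusted p = 0.07). Scaled, 0 of 25 were called and 4 had an unadjusted p under 0.05, where 1.33% of all tested genes were called higher, and Cryab gave 1.64 (SE 0.52, limma adjusted p = 0.108).

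The genes whose profiles over the 16 mice were closest to those of the members were found by the root mean square difference of centred log2(scaled FPKM + 1) values among 4574 protein-coding genes. For Des these were Actg2, the actin of visceral smooth muscle, at 0.44, Serpine2, a protease inhibitor, at 0.49, and Postn, the matrix protein periostin, at 0.51, where the profile of Des itself had a root mean square of 2.05. For Vim they were Anxa2 (0.27), P4hb (0.28) and Arf1 (0.32), against 1.54 for Vim itself. For Nes, against 0.62, they were Ehd2 (0.23), Nop16 (0.24) and Hnrnpf (0.24).

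For Krt18 the nearest were Prkg2 (0.27), Fst (0.37), which encodes follistatin, and Olfml3 (0.40), against 0.71 for Krt18 itself. Those of Krt8 were Zdhhc6 (0.38), Nfyc (0.39) and Actr3 (0.40), against 0.57. Krt7 was nearest to Tor1aip2 (0.19), Commd8 and Gtpbp4 (both 0.26) against 0.33, and Krt19 to Plcg1 (0.29), Eif4g2 (0.31) and Reep3 (0.32) against 0.43. None of the 7 was among the 3 nearest of another, and the 5 members other than Des and Vim were not themselves in the pool, as they did not reach 1 FPKM in 8 mice.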

How the data were processed

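The authors sorted tdTomato-positive cells into lysis buffer, made SmartSeq2 libraries, aligned the reads with TopHat2 2.1.1, which ran Bowtie2 2.2.9, and derived FPKM with Cufflinks 2.1.1. These deposited FPKM were made per mouse, with no scaling between mice and unknown depth. Rows of a gene were summed, and 15 genes with a failed or too deep estimate were left out. Scaled FPKM share the median sum (49122.5) over 21950 nuclear protein-coding genes.

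limma 3.58.1 (R 4.3.3, lmFit, eBayes with trend) was run on log2(FPKM + 1) for genes at 1 FPKM in at least 4 mice of the comparison, with Benjamini-Hochberg adjustment over all tested genes at 0.05, after being tested on simulated data. Starts were made 1-based after comparison with GENCODE (GRCm38). Promoters came from RefSeq. Values were read with Python 3.11.15 and pandas 2.3.3 and plotted with matplotlib 3.10.9.

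The members and lists were chosen with earlier results of these data known. Named were the members, the 3 called partner genes with the largest rise and fall per comparison, fixed defining markers and the 3 most alike genes per member. Myh11, Col1a1, Scgb1a1, Lyz2, Cd68, Upk1b, Jup, Perp, Dsg2, Dsc2, Pkp1, Pkp2, Pkp3, Evpl, Krt80, Dsp, Sync, Lmnb2, Dmd, Krt10, Krt5, Krt14, Krt8-ps and the receptor gauge were chosen after their values were seen. Alternatives were the scaling, a pseudocount of 0.1, no filter or a mean of 5 FPKM, all 16 mice in 1 fit, a replicate block and leaving out mice.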

Additional observations from a re-analysis of the deposited data

Results flagged for a closer look

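Of 47 sets of 4 mice (the 7 genes and 5 ratios in each group, except Krt8 per Krt18 in Pdgfra-tdT bleomycin mice, where Krt18 was listed at 0 in mouse 6), 13 held a mouse whose gap to its neighbour took up more of the range than Dixon's 95% critical value allows. Chance gives about 1 in 20. Pdgfra-tdT saline mouse 3 was high in Vim (53.9 FPKM), Nes (3.08 FPKM), Krt8 (3.42 FPKM), Krt8 per Krt18 (24.2) and Vim per Lmna (5.83). Pdgfra-tdT bleomycin mouse 5 was high in Des (2.32 FPKM), Vim (194 FPKM), Nes (7.31 FPKM), Krt19 (5.23 FPKM) and Des per Myh11 (4.64). Both mice were the highest of their group in endothelial markers, and the part of endothelial cells in these values was not tested. Nes was low in Acta2-tdT bleomycin mouse 6 (8.30 FPKM), which had the lowest summed FPKM of its group. Krt7 was high in Pdgfra-tdT bleomycin mouse 6 (1.005 FPKM) and Des per Vim in Pdgfra-tdT bleomycin mouse 8 (0.0935).

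The effect of bleomycin differed between the lines, by the interaction in limma, for the partner genes Cryab (4.25), Plec (3.73) and Lmna (3.37, log2, Acta2-tdT minus Pdgfra-tdT). None of these calls held after scaling, where the differences were 1.64, 1.41 and 0.87.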

How the results depend on the processing

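Scaling every mouse to 1 protein-coding sum took the partner genes called between the lines with bleomycin from 19 to 9 and those of the interaction from 13 to 0. With a pseudocount of 0.1, 2 genes were called between the lines with saline (4 in the reported fit) and 5 for the interaction. Without a filter the counts were 1 and 8. With a mean of at least 5 FPKM they were 0 of 4 tested (3 at an unadjusted p under 0.05) with saline, 10 between the lines with bleomycin, 11 with bleomycin in Acta2-tdT and 6 for the interaction. With all 16 mice in 1 fit, 2 were counted with saline. Leaving out 1 mouse at a time gave 0 to 6 with saline, 13 to 19 between the lines with bleomycin, 13 to 19 with bleomycin in Acta2-tdT, 0 in Pdgfra-tdT and 5 to 15 for the interaction. For the interaction the count fell to 7 without Acta2-tdT saline mouse 1 or 2, to 8, 6 and 5 without Acta2-tdT bleomycin mouse 5, 7 and 8, to 6 without Pdgfra-tdT saline mouse 3 and to 8 without Pdgfra-tdT bleomycin mouse 8. Leaving out Pdgfra-tdT saline mouse 3 and bleomycin mouse 5 together, chosen after seeing the data, as was the ratio of Des means without the latter, gave 13. In Pdgfra-tdT cells the count was 0 under every alternative run, with at most 1 gene at an unadjusted p under 0.05. The named partner genes kept their direction throughout, and stayed called in 143 of their values under an alternative but not in 32. The cause of these shifts was not tested.

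The lines share mouse numbers, but same-numbered mice did not deviate together. The correlations of their deviations from the group means, across genes, which are not independent replicates, ran from -0.31 to 0.16, over 0.1 in 1 of 8 pairs, and 2 of 8 Acta2-tdT mice correlated best with their own number. A fit with the replicate block gave 0 calls with saline (6 at an unadjusted p under 0.05), 19 between the lines with bleomycin and 6 for the interaction.

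Of 420 values of the members under an alternative, 378 moved by less than the spread between mice and 42 by more. The latter came under the scaling or the pseudocount. Leaving out 1 mouse of a group cannot move a difference by more than this spread, so those values say nothing on stability. No difference between groups that were apart on the deposited scale changed sign, which was not checked for the interaction. Where groups overlapped some did, such as Krt19 between the lines with bleomycin (1.14, and -0.06 scaled). FPKM give no counts, so no limit of detection is given for the keratins.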

Other observations

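Krt80 and Jup, of the partner lists, were uneven over the Pdgfra-tdT mice. Krt80, a type II keratin, read 18.5 FPKM in Pdgfra-tdT bleomycin mouse 5 and 0.05 to 1.08 FPKM in the other 7 Pdgfra-tdT mice. Jup, the gene of plakoglobin, which ties filaments to desmosomes and also sits in endothelial junctions, read 172 FPKM in bleomycin mouse 5, 68.4 FPKM in saline mouse 3, 18.5 FPKM in bleomycin mouse 6 and 0.38 to 2.196 FPKM in the other 5. For Jup, these 3 are the mice with the highest sums of endothelial markers in the line.

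Dsp, the gene of desmoplakin, the main link of keratins to desmosomes, read at most 0.102 FPKM in the Acta2-tdT bleomycin mice, in which Krt8 read 15.1 to 27.9 FPKM. Of the other desmosome genes, Dsg2 read 0.19 to 0.525 FPKM there, against 0.678 to 0.794 FPKM with saline, Dsc2 0.0221 to 0.223 FPKM, against 0.303 to 0.535 FPKM, and Pkp1, Pkp3 and Evpl at most 0.228, 0.767 and 0.156 FPKM. On the deposited scale, where most genes were higher, Jup read 15.7 to 40.03 FPKM, against 0.788 to 2.87 FPKM with saline, and Perp, which encodes a desmosomal membrane protein, 2.96 to 8.61 FPKM, against 0.0667 to 1.62 FPKM. Scaled, Jup read 2.43 to 4.91 against 1.09 to 2.44 and Perp 0.422 to 1.83 against 0.092 to 1.38, so that both overlapped. The basal cell keratins Krt5 and Krt14 read at most 0.03 and 0.91 FPKM there.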
